A study of Mus musculus with 16 samples.

Results

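The WNT ligand genes Wnt3 and Wnt9a and the WNT target genes Axin2, Lef1, Tcf7, Sp5 and Nkd1 were followed in mouse embryonic stem cells while the RNA helicase DDX10 was depleted and after it was allowed to return. The 7 genes were chosen by name and all 7 were found among the 14552 genes of the normalized count table. All cells were of the E14 line with the genotype Ddx10-AID, Tir1. AID is a degron that the plant protein Tir1 directs to degradation when auxin (indole-3-acetic acid, IAA) is present, so the untreated cells carried the degron and Tir1 as well. The 8 groups held 2 libraries each: untreated cells, cells with 500 µM IAA for 2, 4, 6 or 12 h or for 1 or 2 days, and cells with 2 days of IAA followed by 2 days of withdrawal. The gelatin cultures of every group were fed medium containing 15% serum, 3 µM CHIR99021 (an inhibitor of the kinase GSK3), 1 µM PD0325901 (an inhibitor of the kinase MEK) and LIF at 1000 U/mL. The sources used here name no parental line without the degron, no untreated sample collected beside each time, and no number of clones.

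WNT ligands are secreted lipid-modified proteins that bind Frizzled and LRP receptors on the cell surface. Receptor engagement stops a destruction complex of AXIN, APC, CK1 and GSK3 from marking beta-catenin for degradation, and beta-catenin then acts with TCF/LEF factors on target genes. CHIR99021 blocks GSK3 inside the cell, downstream of the receptors, and in embryonic stem cells this inhibitor is used to sustain self-renewal. In such a medium the targets can be active without any ligand, which is the setting in which ligands and targets were compared here.

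The libraries held 14.9 to 16.9 M normalized counts each, in which 1 read was worth 0.89 to 1.24. Over all tested genes, the first principal component (40.6% of the variance) set the 1 day and 2 days libraries (48.9 to 67.1) apart from the rest (-39.5 to 0.571). On the third component (6.06%), untreated replicate 2 lay at 32.1 and untreated replicate 1 at -4.18. The untreated pair also had the widest spread, with 1090 genes at least 2-fold apart, against 342 to 774 in the other groups. No label names a batch, so batch and time cannot be told apart, and comparisons with 2 h are given beside those with untreated. The embryonic stem cell markers Pou5f1, Nanog, Sox2, Zfp42, Esrrb and Klf4 summed to 64494 to 82280 per library. Single markers moved within that sum. Of these 6, 0 were higher and 3 lower than untreated at 6 h (24.4% of all genes called). At 2 days 2 were higher and 2 lower (44.8%). Pou5f1 went from 23170.5 and 22339 in untreated cells to 13539 and 13547 at 12 h. Klf4 went from 3380 and 1915 in untreated cells to 5377 and 5464 at 2 days. The degron acts on the protein, so the Ddx10 transcript, at 889 to 2046 in every library, does not check the labels. P-values measure the spread between libraries of a group, which may be technical, since no label says that the cultures were separate.

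In the GENCODE M21 annotation of GRCm38, Wnt3 lies at chr11:103774150-103817957, Wnt9a at chr11:59306928-59333552, Axin2 at chr11:108920349-108950783 and Tcf7 at chr11:52252371-52283014. Lef1 lies at chr3:131110471-131224356, Sp5 at chr2:70474923-70477729 and Nkd1 at chr8:88521354-88594884. All 7 are protein-coding genes, and Tcf7 is the only member on the minus strand. Thus 4 of 7 members are on chromosome 11, where 44% of 1096 tested genes were called at 2 days, against 44.8% of all genes. Exons of Axin2 and Lef1 overlap exons of the antisense genes Gm11670 and Gm43352, and whether counting used strand is not given in the sources used here.

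TCF/LEF binding near the start site is a known route from beta-catenin to its targets. The promoter of Sp5, the member that most visibly carries TCF/LEF letters, is shown. Beside it are those of Wnt3 and Axin2, the ligand and the target that changed under auxin without such letters. Each is the 250 bases before the RefSeq start site (GRCm38.p6, plus strand), at chr2:70474673-70474922, chr11:103773925-103774174 and chr11:108920099-108920348. Capitals mark CTTTG followed by 2 letters that are each A or T, on either strand.
Sp5: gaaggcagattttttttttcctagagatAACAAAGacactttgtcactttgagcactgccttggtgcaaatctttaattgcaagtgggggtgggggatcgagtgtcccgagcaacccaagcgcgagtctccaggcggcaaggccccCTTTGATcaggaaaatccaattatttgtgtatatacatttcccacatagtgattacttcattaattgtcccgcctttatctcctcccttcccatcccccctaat
Wnt3: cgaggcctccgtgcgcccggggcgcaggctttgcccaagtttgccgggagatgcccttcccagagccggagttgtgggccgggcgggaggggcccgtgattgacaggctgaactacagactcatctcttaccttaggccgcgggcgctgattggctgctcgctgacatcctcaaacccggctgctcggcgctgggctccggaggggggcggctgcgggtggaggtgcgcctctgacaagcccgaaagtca
Axin2: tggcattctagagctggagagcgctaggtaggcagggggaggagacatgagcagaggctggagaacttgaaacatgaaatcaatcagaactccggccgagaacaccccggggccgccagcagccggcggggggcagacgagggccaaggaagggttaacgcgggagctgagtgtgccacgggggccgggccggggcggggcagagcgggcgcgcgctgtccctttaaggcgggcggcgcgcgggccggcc
The Sp5 window held AACAAAG, which is CTTTGTT on the other strand, from base -222 before the start, and CTTTGAT from base -104. All 7 members matched the RefSeq table with 11 start sites in all, and 2 windows held such letters, those of Sp5 and of 1 of 4 Lef1 starts (TACAAAG from base -147). Of all 32851 windows of this length, 14.8% held at least 1 match. A match describes the sequence only, and no match says only that these letters are not in this window.

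Wnt3, a canonical ligand needed for primitive streak formation in the embryo, rose under auxin and fell after withdrawal. The untreated libraries held 4.96 and 2.03 normalized counts of Wnt3, those of 2 h 0 and 2.09, and those of 4 h 3.01 and 8.18. The 6 h libraries reached 17.6 and 15.7, the 12 h libraries 25.3 and 21.7, the 1 day libraries 25.3 and 26.3, and the 2 days libraries 22.2 and 24.0. The withdrawal libraries held 4.48 and 4.26. Every library from 6 h to 2 days thus stood above every untreated, 2 h, 4 h and withdrawal library. In order of level, 1 day, 12 h and 2 days came first with touching or overlapping values, then 6 h apart from them. The 4 h, withdrawal, untreated and 2 h groups followed, each overlapping the next.

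On the scale of log2(value + 1), which understates the change of low genes, Wnt3 was higher than untreated by 2.05 at 6 h (SE 0.60, limma adjusted p = 0.0237), and by 2.52 at 12 h (adjusted p = 0.0052). The log2 difference was 2.66 at 1 day (limma adjusted p = 0.00372) and 2.50 at 2 days (adjusted p = 0.00383). Withdrawal against 2 days gave a fall, with a log2 change of -2.17 (limma adjusted p = 0.0104), and withdrawal against untreated was 0.34 with a 95% interval of -0.95 to 1.62. Against 2 h, Wnt3 was higher by 1.79 at 4 h (limma adjusted p = 0.157), by 3.32 at 6 h (adjusted p = 0.00369) and by 3.80 at 12 h (adjusted p = 0.000485). The 6 h call against untreated was lost without untreated replicate 2 (limma adjusted p = 0.122) or either 6 h library (0.117 and 0.088), and the withdrawal call without 2 days replicate 2 (0.0572). Wnt3 passed the filter on low values, a mean of 10, through its auxin groups, since 4 of its 8 groups had a mean under 10.

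The Wnt3 values rest on few reads. Divided by the value of 1 read, each was a whole number within 0.12, which gave 6 reads over both untreated libraries. The 2 h pair had 2 reads, the 4 h pair 11, the 6 h pair 35, the 12 h pair 51, the 1 day pair 53, the 2 days pair 51 and the withdrawal pair 8. Scaled by the value of 1 read in each library, the reads at 12 h were 6.98 times those of untreated, with an exact 95% interval of 2.99 to 19.9. At 2 days that ratio was 6.90 (2.96 to 19.7), and withdrawal against 2 days was 0.189 (0.0774 to 0.401). These intervals cover counting error only. The largest ratios, against 2 h, rest on 2 reads there: 22.6 at 12 h, with an interval of 5.94 to 191.7.

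**Figure D1:**
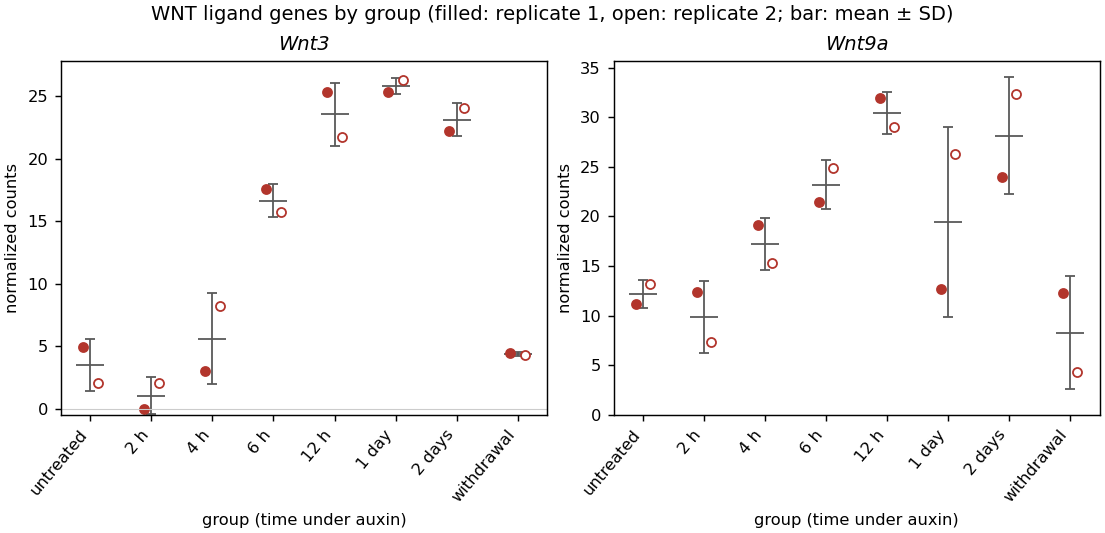
Normalized counts (y axis, linear) of Wnt3 and Wnt9a in each of the 8 groups (x axis); filled and open points are replicates 1 and 2, and bars are the mean ± SD (n = 2). Wnt3 stood between 15.7 and 26.3 from 6 h to 2 days and at or below 8.18 in the other groups, while the Wnt9a groups overlapped more.

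Wnt9a, a ligand known from joint and blood stem cell development, differed in the same direction by smaller amounts. The untreated libraries held 11.2 and 13.2 normalized counts, those of 2 h 12.4 and 7.32, those of 4 h 19.1 and 15.3, and those of 6 h 21.5 and 24.9. The 12 h libraries held 31.9 and 29.0, the 1 day libraries 12.7 and 26.2, the 2 days libraries 24.0 and 32.3, and the withdrawal libraries 12.3 and 4.26. The 4 h, 6 h, 12 h and 2 days libraries all lay above both untreated libraries, and 1 day replicate 1 lay between them. In order of level, 12 h (30.4 ± 2.09, SD, n = 2) was followed by 2 days, 6 h, 1 day, 4 h, untreated, 2 h and withdrawal, and only 4 h and untreated were neighbours that did not overlap.

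No comparison of Wnt9a with untreated passed the test. The log2 difference was 1.26 at 12 h (SE 0.48, limma adjusted p = 0.061) and 1.13 at 2 days (limma adjusted p = 0.072). Wnt9a was lower after withdrawal than at 2 days, by a log2 change of -1.79 (limma adjusted p = 0.00949), and higher at 12 h than at 2 h, by 1.57 (adjusted p = 0.0298). The withdrawal call was lost without 2 days replicate 2 (limma adjusted p = 0.0724) or withdrawal replicate 2 (0.118). The 12 h call against 2 h was lost without 2 h replicate 2 (limma adjusted p = 0.193) or either 12 h library (0.132 and 0.105). In reads, within 0.17 of whole numbers, the untreated pair had 22 of Wnt9a, the 12 h pair 66, the 2 days pair 62 and the withdrawal pair 15. Scaled as for Wnt3, the ratio to untreated was 2.46 at 12 h (exact 95% interval 1.50 to 4.19) and 2.29 at 2 days (1.39 to 3.91), for counting error only.

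Axin2 encodes a scaffold of the destruction complex and is the most widely used readout of beta-catenin activity. The untreated libraries held 678 and 1071 normalized counts, those of 2 h 1006 and 915, those of 4 h 780 and 790, those of 6 h 713 and 703, and those of 12 h 638 and 693. The 1 day libraries held 704 and 997, those of 2 days 409 and 481, and those of withdrawal 511 and 562. Both 2 days libraries were below all other libraries, and the withdrawal libraries came next. From 2 h to 12 h the group means went down stepwise (961, 785, 708 and 666), with no overlap between neighbours, and the 1 day pair spread over most of that range.

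Axin2 fell by 0.94 on the log2 scale at 2 days against untreated (SE 0.19, limma adjusted p = 0.00108). After withdrawal the log2 change against untreated was -0.67 (limma adjusted p = 0.0787), and against 2 days it was 0.27, with a 95% interval of -0.13 to 0.67. Against 2 h, the log2 change was -0.29 at 4 h, -0.44 at 6 h and -0.53 at 12 h (limma adjusted p = 0.541, 0.185 and 0.0544), none called. A fit of the 2 h to 12 h libraries alone was added after seeing the data. The spread of the untreated, 1 day, 2 days and withdrawal pairs does not enter it. There these changes passed with limma adjusted p of 0.0459, 0.00345 and 0.000453. Over the 6 times, a limma F-test called Axin2 (adjusted p = 0.00291), and it called 65.2% of all genes.

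Sp5 encodes a zinc finger factor that is a direct target and a repressor within the pathway. The untreated libraries held 101 and 45.8 normalized counts, those of 2 h 105 and 90.5, those of 4 h 82.1 and 78.7, those of 6 h 80.9 and 83.7, and those of 12 h 37.4 and 46.9. The 1 day libraries held 138 and 259, those of 2 days 89.0 and 73.3, and those of withdrawal 31.4 and 31.0. Both 1 day libraries exceeded all others, and both withdrawal libraries were below all others. The untreated pair spanned the values of 4 h, 6 h and 2 days, of 2 h replicate 2 and of 12 h replicate 2.

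Sp5 was higher at 1 day than in untreated cells, by a log2 change of 1.46 (SE 0.34, limma adjusted p = 0.00465). It was lower after withdrawal than at 2 days, at -1.35 (limma adjusted p = 0.00623), and lower at 12 h than at 2 h, at -1.20 (adjusted p = 0.0202). Withdrawal against untreated was -1.10 (limma adjusted p = 0.107). The 1 day call was lost without untreated replicate 2 (limma adjusted p = 0.0547) or 1 day replicate 2 (0.0568), and the withdrawal call without 2 days replicate 1 (0.0501). The 12 h call against 2 h was lost without any 1 of the 4 libraries (limma adjusted p = 0.0553 to 0.129).

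Lef1 encodes a TCF/LEF factor that is itself a target. The untreated libraries held 20.0 and 194 normalized counts, those of 2 h 64.7 and 60.9, those of 4 h 42.9 and 41.5, those of 6 h 24.2 and 36.5, and those of 12 h 22.4 and 15.1. The 1 day libraries held 8.92 and 30.3, those of 2 days 22.1 and 14.3, and those of withdrawal 42.7 and 52.8. The untreated pair thus spanned nearly the whole range of the gene, while the group means went from 62.8 at 2 h to 18.8 at 12 h with no overlap between neighbouring times.

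No Lef1 comparison was called in the fit of all libraries. The log2 change against untreated was -1.72 at 12 h (SE 0.76, limma adjusted p = 0.0997) and -1.77 at 2 days (limma adjusted p = 0.0748). Without untreated replicate 1 the log2 changes were -2.17 at 4 h (limma adjusted p = 0.0186), -2.66 at 6 h, -3.33 at 12 h, -3.47 at 1 day, -3.38 at 2 days. That of withdrawal was -2.01, and all 6 were called. Without untreated replicate 2 the sign turned at 2 h (1.60), 4 h (1.04), 6 h (0.55) and after withdrawal (1.21). Without 1 day replicate 2 the 1 day change was called at -2.69 (limma adjusted p = 0.0359). Withdrawal against 2 days was 1.37 (limma adjusted p = 0.17), and it was called with the 2 groups fitted alone (adjusted p = 0.0131). Against 2 h with the 2 h to 12 h libraries fitted alone, Lef1 was lower by a log2 change of -1.05 at 6 h (limma adjusted p = 0.0359) and -1.72 at 12 h (adjusted p = 0.00138). Untreated replicate 2 was also the higher of the pair in Gata3 (258.5 against 45.1), Eomes (481 against 267) and Ror1 (186 against 52.0), and the part of such differences in the Lef1 values was not tested.

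Tcf7, which encodes TCF1, differed least between groups and stood at 596 to 721 normalized counts in the 16 libraries. The group means ran from 615 at 6 h to 701 after withdrawal. At 2 days the log2 change against untreated was -0.09, with a 95% interval of -0.27 to 0.09, and the 7 intervals against untreated lay between -0.32 and 0.23. These intervals exclude a change of the size that Axin2 had at 2 days.

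Nkd1, a feedback inhibitor that binds Dishevelled, was low and showed no called change. The untreated libraries held 34.7 and 36.8 normalized counts, those of 2 h 35.2 and 16.7, those of 12 h 39.5 and 37.1, those of 2 days 39.9 and 25.8, and those of withdrawal 17.9 and 19.1. The libraries of 4 h, 6 h and 1 day lay between 25.4 and 36.0. Only 2 h replicate 2 was as low as the withdrawal pair. The log2 change of withdrawal against untreated was -0.91 (SE 0.36, limma adjusted p = 0.197), and at 2 days against untreated it was -0.15, with a 95% interval of -0.92 to 0.62.

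**Figure D2:**
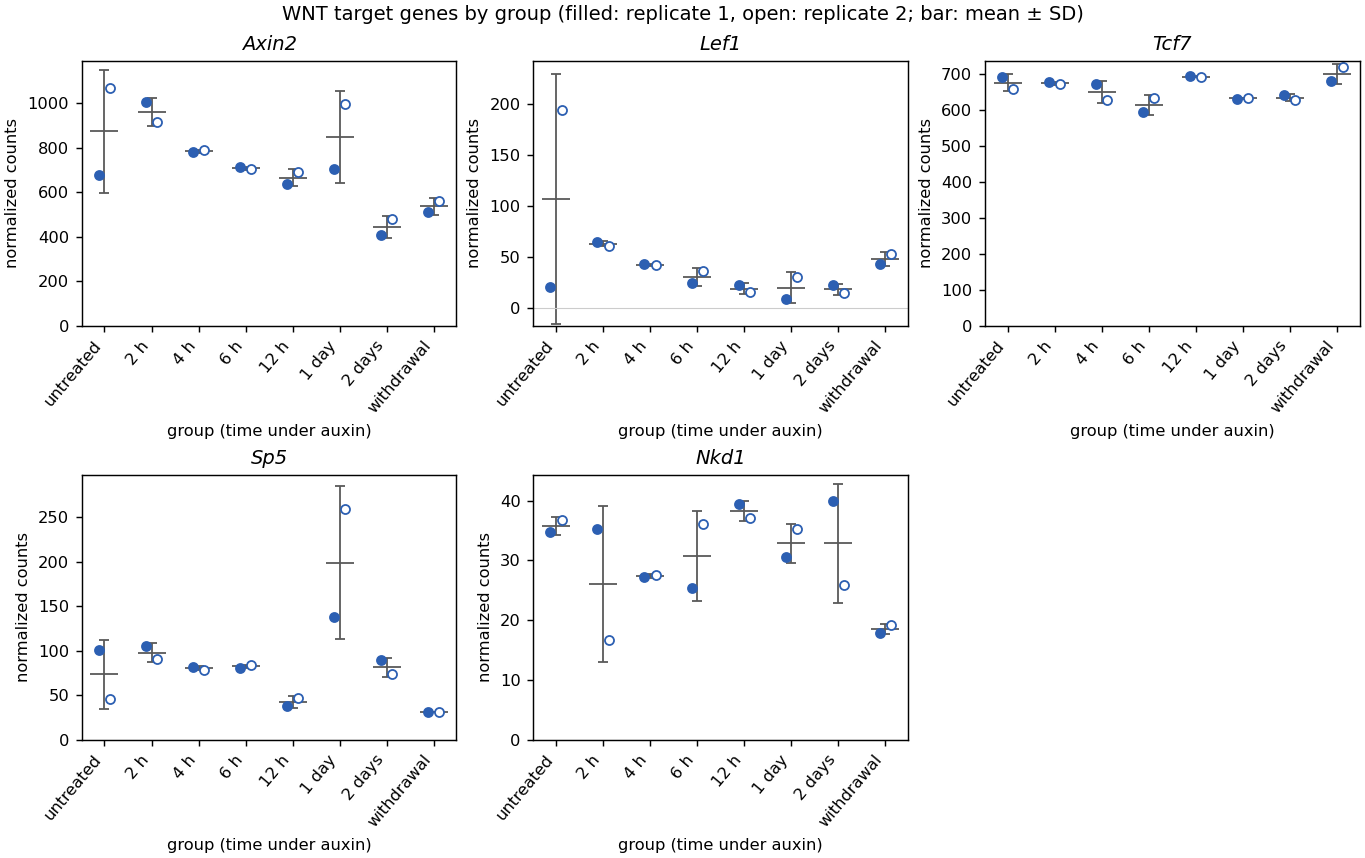
Normalized counts (y axis, linear) of the 5 target genes in each of the 8 groups (x axis); filled and open points are replicates 1 and 2, and bars are the mean ± SD (n = 2). Axin2 was lowest at 2 days (409 and 481), Sp5 highest at 1 day (138 and 259), the untreated Lef1 libraries lay at 20.0 and 194, and Tcf7 stayed between 596 and 721.

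Per kilobase of annotated exon, the mean normalized counts over all libraries were 251 for Tcf7, 132 for Axin2, 40.9 for Sp5, 6.65 for Nkd1, 5.59 for Wnt9a, 4.93 for Lef1 and 4.21 for Wnt3. The order of the lowest genes turned between groups. In untreated cells Wnt3 was at 1.14 per kilobase, Wnt9a at 3.66, Nkd1 at 7.84 and Lef1 at 12.2, while at 12 h Wnt3 was at 7.65, Wnt9a at 9.14, Nkd1 at 8.40 and Lef1 at 2.13. By these group means both ligands stood below Lef1 and Nkd1 in untreated cells, and at 12 h both were above Lef1. The untreated mean of Lef1 rests on libraries at 20.0 and 194 normalized counts. The mean log2(value + 1) of the ligands minus that of the targets was -3.92 and -4.85 for the untreated pair and -5.59 and -4.83 for the 2 h pair. The 4 h pair gave -3.96 and -3.48, the 6 h pair -2.53 and -2.74, the 12 h pair -1.90 and -2.04, the 1 day pair -2.59 and -2.72, and the 2 days pair -2.29 and -1.77. The withdrawal pair gave -3.53 and -4.35. The gap between ligands and targets was thus narrower in every library from 6 h to 2 days than in every untreated, 2 h and withdrawal library. This is a description, since the genes were chosen with earlier results of these data known.

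Of the 7 members, 0 were called against untreated at 2 h, where 15.2% of the 13355 tested genes were called, and 0 at 4 h (19.1%). At 6 h 1 of 7 was called (24.4% of all genes), at 12 h 1 (33.1%), at 1 day 2 (33.6%) and at 2 days 2 (44.8%). Withdrawal against untreated called 0 members and 2.79% of all genes, and withdrawal against 2 days called 3 members and 41.3%. Against 2 h, 0 members were called at 4 h (2.45% of all genes), 1 at 6 h (7.8%) and 3 at 12 h (24.6%). The share of members called was therefore near or below that of all genes in most comparisons, and the results concern single genes. At 2 days the median log2 change was 1.82 for the 2 ligands, -0.15 for the 5 targets and -0.012 for all genes. At 12 h these medians were 1.89, -0.36 and 0.023. The comparisons with untreated share its 2 libraries.

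**Figure D3:**
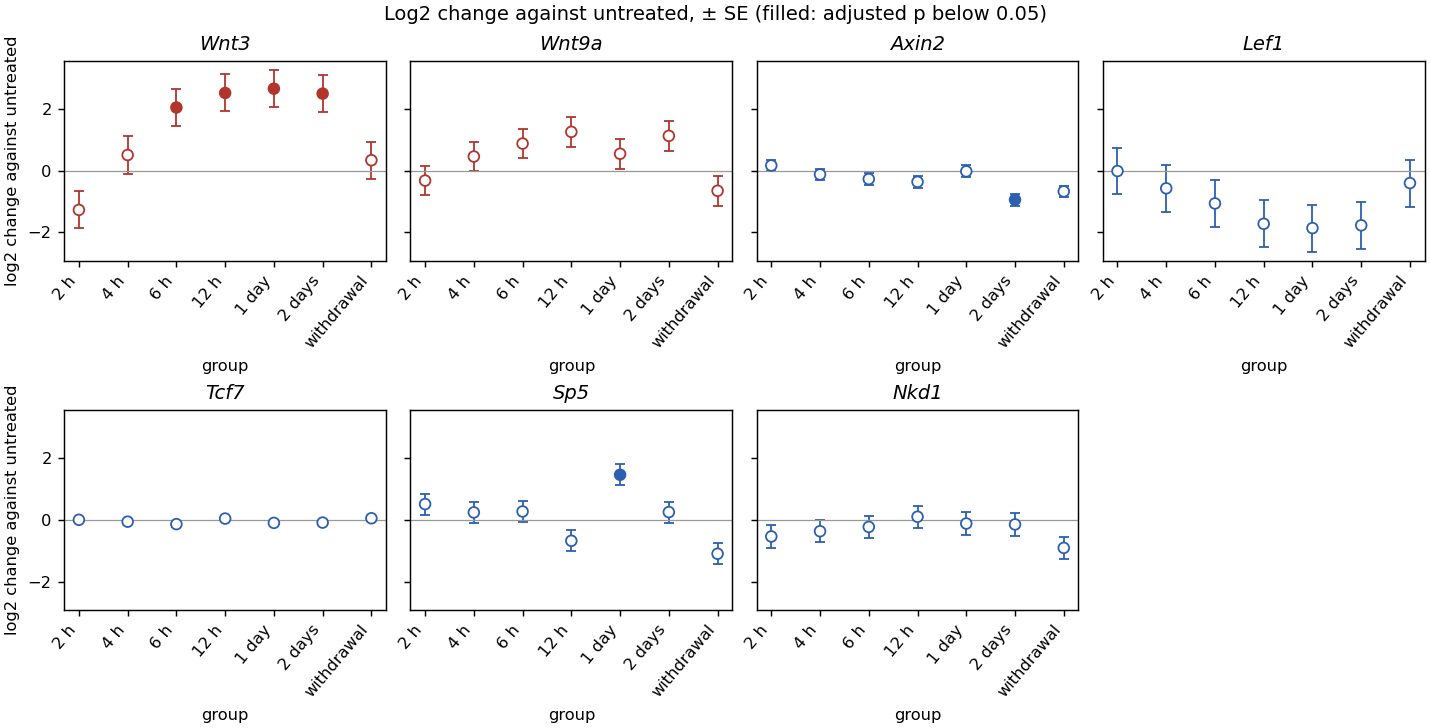
Log2 change of each member against untreated (y axis, on the log2(value + 1) scale) at each time under auxin and after withdrawal (x axis); bars are ± SE, red marks ligands, blue marks targets, and filled points have an adjusted p below 0.05. Wnt3 was called from 6 h to 2 days (2.05 to 2.66), Axin2 at 2 days (-0.94) and Sp5 at 1 day (1.46).

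Other WNT ligands were called in both directions. Of 19 listed ligand genes, 12 were in the table and 7 passed the filter, the 2 members and 5 others. Of these 5, 2 were higher and 1 was lower than untreated at 12 h (33.1% of all genes called), with a median log2 change of 0.87 against 0.023 for all genes. At 1 day 1 was higher and 0 lower (33.6% of all genes called), with a median of -0.17 against -0.009. At 2 days 2 were higher and 1 lower (44.8% of all genes called), with a median of 0.82 against -0.012. Wnt6 rose from 4 h on: the untreated libraries held 20.6 and 7.34 normalized counts, those of 12 h 65.6 and 67.8, and those of withdrawal 13.0 and 16.2. Its log2 difference from untreated was 2.33 at 12 h and 1.93 at 2 days, both called. Wnt3a, the neighbour of Wnt9a on chromosome 11 at a gap of 16.2 kb, was higher at 12 h (log2 change 1.86), and Wnt7b was higher at 2 days (1.60). At 1 day the Wnt3a libraries held 10.6 and 7.25 normalized counts, against 16.1 and 6.10 in untreated cells. Wnt5b, a ligand of the beta-catenin-independent branch, fell by 1.03 on the log2 scale at 12 h and by 1.27 at 2 days. After withdrawal, against 2 days, Wnt3a, Wnt6 and Wnt7b were lower and Wnt5b was higher, 4 of 5 called beside 41.3% of all genes. Wnt8b, under the filter and not tested, was at 0 in both untreated libraries, while the 1 day libraries held 14.8 and 14.5 and the withdrawal libraries 1.12 and 0. Wnt6, Wnt3a, Wnt7b and Wnt8b were named after their values were seen.

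Of 3 genes of ligand secretion, Porcn was lower and Wls higher at 1 day and 2 days, and Tmed5 was called in no comparison. Porcn encodes the enzyme that adds the lipid to WNT proteins, and its untreated libraries held 305.5 and 397 normalized counts, against 133 and 136 at 12 h and 186 and 184 at 2 days. Porcn was lower than untreated in all 7 comparisons, by log2 changes of -0.66 after withdrawal to -1.37 at 12 h. Wls encodes the carrier that takes WNT proteins to the cell surface, and it rose to 269 and 399 at 1 day and 372 and 318 at 2 days, from 99.2 and 123 in untreated cells. Before that, the log2 change of Wls was -0.44 at 2 h, -0.67 at 4 h and -0.37 at 6 h, none of them called. It was 1.56 at 1 day, 1.63 at 2 days and -1.86 for withdrawal against 2 days, all called.

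Among 15 receptor genes, 7 were higher and 2 lower at 2 days, 60% of the list beside 44.8% of all genes (median 0.11, all genes -0.012). Fzd6 rose by 1.43 on the log2 scale, and Fzd7, a Frizzled receptor that is also a WNT target in embryonic stem cells, fell by 1.33. The Fzd7 libraries held 1279.9 and 1892 normalized counts in untreated cells, 588 and 649 at 2 days, and 1514 and 1430 after withdrawal, so the withdrawal values lay inside the untreated range. Fzd5 was higher at 2 h to 6 h (log2 changes 0.74 to 0.95) and not called later. Its untreated libraries were far apart, at 2988 and 1760.5 normalized counts, against 4337 and 4532 at 2 h and 3909 and 3780 at 6 h. Of 9 secreted or membrane inhibitors tested, 2 were higher and 3 lower at 1 day, beside 33.6% of all genes called. Sfrp1, a secreted WNT-binding antagonist, was higher at 2 h to 12 h (0.36 to 0.61), lower at 1 day (-0.56) and 2 days (-0.55), and higher after withdrawal than in untreated cells (0.56). Of 5 R-spondin branch genes, which control receptor levels, Lgr6 was higher (2.55) and Lgr4 lower (-0.52) at 2 days.

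**Figure D4:**
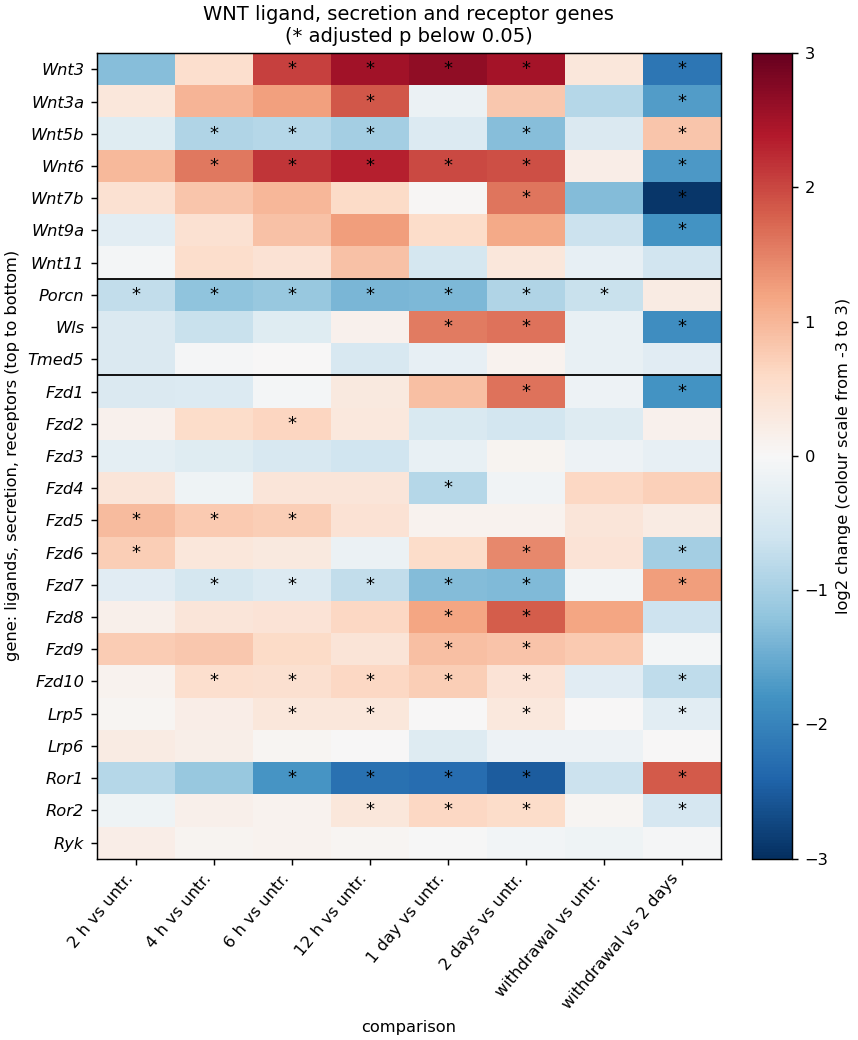
Log2 changes (colour, from -3 to 3) of the tested WNT ligand, secretion and receptor genes (rows) in the 7 comparisons with untreated and in withdrawal against 2 days (columns); a star marks an adjusted p below 0.05. Wnt3 and Wnt6 were higher from 6 h to 2 days, Porcn was lower in all comparisons with untreated, and Fzd7 was lower from 4 h to 2 days.

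Downstream of the receptors, 3 of 18 genes of the destruction complex and Dishevelled group were higher and 2 lower at 2 days, 27.8% of the list beside 44.8% of all genes, with a median of 0.07. Dvl3 was higher (0.65), Gsk3b, which encodes a kinase that CHIR99021 inhibits, was higher (0.31, and already 0.47 at 2 h), and Axin2 was lower. Of 14 genes for beta-catenin, TCF/LEF factors and their cofactors, 3 were higher and 1 lower at 2 days, 28.6% of the list (median 0.03). The beta-catenin gene Ctnnb1 had a log2 change of 0.21 at 6 h, which was called, and of -0.09 at 2 days, which was not.

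Of 22 tested WNT target genes of embryonic stem cells, 5 members included, 3 were higher and 5 lower at 2 days (median -0.21, all genes -0.012), and 5 were higher and 4 lower at 1 day. These are 36.4% and 40.9% of the list, beside 44.8% and 33.6% of all genes, shares near the background. Myc, a growth regulator, held 438 and 435 normalized counts in the untreated libraries, 46.6 and 67.1 at 2 days, and 386 and 354 after withdrawal. It fell by 2.94 on the log2 scale at 2 days and by 1.80 at 12 h. Bmp4, a signalling ligand, fell by 2.14 at 2 days and by 1.12 already at 2 h. Apcdd1, a membrane inhibitor of WNT signalling, was higher at 1 day (1.05) and 2 days (0.82). Its untreated libraries were far apart, at 429 and 220.5 normalized counts, against 565 and 720 at 1 day and 559 and 527.5 at 2 days. The called targets included both directions.

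The p53 feedback and arrest genes Mdm2, Cdkn1a and Ccng1 were all called higher at each time from 4 h to 2 days. Of all genes, 19.1% were called either way at 4 h and 44.8% at 2 days. At 4 h the log2 changes of Mdm2, Cdkn1a and Ccng1 were 1.27, 0.84 and 1.09. For withdrawal against 2 days they were -1.73, -1.94 and -1.62 (41.3% of all genes called). Their part in the ligand values was not tested. Of the primitive endoderm markers, 6 of 8 listed genes were in the table. Of 4 tested, 0 were called at 6 h (24.4% of all genes), 1 at 12 h (33.1%) and 2 at 2 days (44.8%). Their summed level, lower library first, was 80.2 and 81.1 for the untreated pair, 94.5 and 132 for 2 h, 106 and 123 for 4 h, 132 and 158 for 6 h, and 104 and 127 for 12 h. The 1 day pair summed to 132 and 142, the 2 days pair to 152 and 166, and the withdrawal pair to 96.7 and 101. These sums rest on low counts, and 0 of the 4 tested markers were called at 2 h (15.2% of all genes called). Markers of primitive streak and mesoderm (8 of 10 in the table), neural cells (5 of 8), trophoblast (6 of 8) and fibroblasts (2 of 8) summed to at most 586, 2732, 2528 and 108 in any library. At 2 days, 2 of 6 tested streak and mesoderm markers were higher and 1 lower, and 2 of 4 neural markers were higher and 1 lower. Of 6 trophoblast markers 1 was higher and 2 lower, and of 2 fibroblast markers 1 was lower (44.8% of all genes called). Some markers were called in the opposite direction for withdrawal against 2 days. Neurod1, a neural factor, was at 21.1 and 23.4 in untreated cells, 121 to 224 in the libraries from 4 h to 2 days, and 26.9 and 22.4 after withdrawal (log2 change 2.95 at 2 days, -2.81 for withdrawal against 2 days). Mesp2, a mesoderm factor, was at 26.1 and 24.4 in untreated cells, 38.3 to 62.6 from 6 h to 2 days, and 10.1 and 10.7 after withdrawal (1.07 and -2.27). Tfap2c, a trophoblast and germ cell factor, was at 824 and 526 in untreated cells, 1104 to 1775 from 12 h to 2 days, and 394 in both withdrawal libraries (1.38 and -2.11). Some other markers of these lists went the other way. Tubb3, a neural marker, was at 2337 and 1572 in untreated cells, 1164 and 1090 at 2 days, and 2015 and 1913 after withdrawal. Krt8, a trophoblast marker, was at 481 and 335 in untreated cells, 245 and 279 at 2 days, and 662 and 670 after withdrawal. Eomes, listed for streak and mesoderm and for trophoblast, fell from untreated levels of 267 and 481 to 155 and 138 by 12 h. Its 2 days libraries (247 and 219) also lay below the untreated pair, and its withdrawal libraries (431 and 479) lay inside that range. The summed streak and mesoderm level was lowest in the 12 h pair (257 and 262), beside 420 and 586 for untreated cells and 457 and 411 for 2 days. Gata4 lay between 12.6 and 44.4 in all libraries, and Sox17 was at 0 in 2 of 16. The part of these genes in the ligand values was not tested. In bulk RNA, fewer cells that express a gene and less RNA per cell cannot be told apart.

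The genes whose log2 values followed each member best over the 16 libraries were sought among tested genes with a mean of at least 50. For Wnt3 they were Kank3 (Pearson r = 0.95), Ggta1 (0.95) and Pafah2 (0.94), and for Wnt9a Zbtb5 (0.89), Klhl42 (0.88) and Creb3l1 (0.86). For Axin2 they were Nucks1 (0.85), Orc4 (0.85) and Ap1g1 (0.84), for Lef1 Cth (0.90), Acadl (0.87) and Spred3 (0.85), and for Sp5 Hmox1 (0.87) and Dhrs13 (0.84). Tcf7 was followed best by Mcm8 (0.81) and Nkd1 by Setdb2 (0.80). Among the members, r was 0.66 between the ligands and -0.75 between Wnt3 and Lef1. These values describe 16 libraries in 8 pairs, were selected as the highest among the tested genes, and share depth and scaling within each library.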

How the data were processed

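Expression was measured by mRNA sequencing in 16 libraries, 8 groups of 2, grouped and numbered as the labels give them. The deposited values are a signal in normalized counts: the authors scaled gene counts per library, a statement that rests on the table's name and its values. Trim Galore, STAR, RSEM, DESeq2 and the build mm10 are listed in the submitters' processing notes, and the sources used here do not give versions, roles or annotation. In 1884 genes with 1 transcript, 76.0% to 99.2% of low values per library were whole multiples of 1 read (tolerance 0.1). Libraries held an estimated 13.6 to 17.4 M reads.

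The deposited values were taken as log2(value + 1). The 13355 genes whose mean over all libraries reached 10 entered 1 fit of all libraries with limma 3.58.1 (R 4.3.3), with a mean per group and an intensity trend. Each time and withdrawal was compared with untreated, withdrawal with 2 days, and 4 h, 6 h and 12 h with 2 h. Within each comparison, Benjamini-Hochberg adjusted p-values below 0.05 were called. The code was tested on simulated data. The members, gene lists, comparisons and tests were chosen with earlier results of these data known. Beside the 7 members, the rule named up to 5 called genes a list with a mean of at least 50, and the 3 most alike genes, of which not all are reported here. Genes outside that rule were chosen after their values were seen: Wnt6, Wnt3a, Wnt7b, Wnt8b, Lgr6, Tmed5, Ror1, Gata3, Mesp2, Gata4, Sox17 and Ctnnb1. Replicate numbers do not pair the libraries: over 28 pairs of groups, the deviations of same-numbered libraries correlated at -0.06 to 0.07. Positions are from GENCODE M21 (14467 of 14552 genes matched) and promoters from RefSeq. Alternatives tried were pseudocounts, filters, scalings, a replicate block, the 2 groups alone and leaving out each library. Removal of a length and GC trend, and the 2 h to 12 h libraries alone, were added after seeing the data.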

Additional observations from a re-analysis of the deposited data

How the results depend on the processing

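Each call depends on 2 libraries a group. Under pseudocounts of 0.5 and 5, no filter, both scalings, the replicate block and removal of a length and GC trend, 3 of 539 member changes did not stay on their side of the threshold: Wnt9a at 12 h against untreated was called with a pseudocount of 5 (1.05, limma adjusted p = 0.0414), and Axin2 at 12 h against 2 h was called with the replicate block (adjusted p = 0.0331) and with the trend removed (0.0216). The rescalings moved the median of all genes by at most 0.065. A pseudocount of 5 changed the ligand minus target difference to 1.90 at 12 h and to -1.42 for withdrawal against 2 days, and raised the members called at 12 h to 2. A filter at a mean of 50 removes Wnt3, Wnt9a, Lef1 and Nkd1 and left 0 members called at 6 h, 0 at 12 h, 1 at 1 day, 1 at 2 days, 1 for withdrawal against 2 days, and 0 and 1 at 6 h and 12 h against 2 h.

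Fitting the 2 groups alone called 0 members at 6 h, where Wnt3 was lost (limma adjusted p = 0.0926), 1 at 1 day, where Sp5 was lost (0.085), 4 for withdrawal against 2 days, where Lef1 was added (0.0131), and 3 and 5 at 6 h and 12 h against 2 h. It called 408 genes at 2 h, 731 at 4 h, 1411 at 6 h, 2901 at 12 h, 1219 at 1 day, 1 for withdrawal against untreated, and 694 and 2274 at 4 h and 6 h against 2 h. In the main analysis these counts were 2030, 2548, 3253, 4422, 4484, 373, 327 and 1042. The 2 h to 12 h libraries alone called 1, 4 and 5 members at 4 h, 6 h and 12 h against 2 h, and 1128, 2500 and 4987 genes. With the trend removed, 585 genes were called for withdrawal against untreated. The cause of these differences was not tested.

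Leaving out 1 library at a time gave 0 to 1 members called at 2 h and at 4 h against untreated, 0 to 3 at 6 h, 1 to 3 at 12 h and at 1 day, 2 to 3 at 2 days and 0 to 2 after withdrawal. For withdrawal against 2 days it gave 1 to 3, and against 2 h it gave 0 at 4 h, 1 at 6 h and 1 to 2 at 12 h. The genes called ranged from 501 to 2267 at 2 h, 926 to 2548 at 4 h, 1607 to 3159 at 6 h, 2831 to 4475 at 12 h and 67 to 1106 after withdrawal against untreated. Against 2 h they were 97 to 123, 340 to 442 and 1773 to 1938, where 3280 had been called at 12 h. Withdrawal against untreated was called for 1106 genes without untreated replicate 1, for 67 without withdrawal replicate 1 and for 69 without withdrawal replicate 2.

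Some member changes that were not called turned in sign. Against untreated at 2 h, Wnt9a ranged from -0.66 to 0.03, Axin2 from -0.16 to 0.50, Lef1 from -1.61 to 1.60 and Sp5 from -0.04 to 1.07. At 4 h, Wnt3 ranged from -0.08 to 1.11, Axin2 from -0.45 to 0.21, Lef1 from -2.17 to 1.04 and Sp5 from -0.32 to 0.80. At 6 h, Axin2 ranged from -0.60 to 0.06, Lef1 from -2.66 to 0.55, Sp5 from -0.29 to 0.83 and Nkd1 from -0.48 to 0.01. At 1 day Axin2 ranged from -0.35 to 0.30, and at 2 days Sp5 ranged from -0.31 to 0.81 and Nkd1 from -0.45 to 0.15. After withdrawal, Wnt3 ranged from -0.15 to 0.82, Wnt9a from -1.32 to 0.02 and Lef1 from -2.01 to 1.21. Against 2 h, Nkd1 ranged from -0.35 to 0.68 at 4 h and from -0.21 to 0.82 at 6 h. Where a group is left with 1 library, that library is assumed to vary like the other groups. Ligand values of a few reads limit what depth can show.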
